A study of Homo sapiens with 12 samples.

Results

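The 10 nuclear genes followed here encode proteins that fold or degrade other proteins inside mitochondria, and their transcripts were measured in HT29 cells given a water extract of *Aconitum carmichaeli* Debeaux (ACD). They were picked by symbol, as a readout of mitochondrial protein stress, and all 10 of the symbols were found among the 60675 gene IDs of the count table. Of these, 4 are chaperones or co-chaperones (HSPD1, HSPE1, HSPA9 and DNAJA3) and 6 are proteases or their subunits (LONP1, CLPP, CLPX, YME1L1, AFG3L2 and HTRA2). HT29 is an established human colorectal adenocarcinoma cell line. Treatment lasted 24 h, and the doses of ACD were 20 µg/mL, 100 µg/mL and 500 µg/mL, called low, medium and high here. Control cells received PBS that held 2% DMSO (vehicle), which by the study's methods was also the solvent of the extract stock. Each of the 4 groups had 3 libraries, 12 in all. A longer treatment note kept with the samples describes an extract of another organism, Poria cocos. Groups here follow the sample titles and treatment fields, which name ACD or an abbreviation of it.

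Most mitochondrial proteins are made in the cytosol and enter the organelle unfolded through membrane channels. HSPA9 (mortalin, the mitochondrial HSP70) pulls them into the matrix and holds them, DNAJA3 is a J-domain partner that sets off its ATP hydrolysis, and HSPD1 (HSP60) forms a folding chamber that HSPE1 (HSP10) closes as a lid. LONP1 and the pair of CLPX, the unfolding ring, with CLPP, the proteolytic chamber, degrade proteins of the matrix. YME1L1 faces the intermembrane space and AFG3L2 the matrix, both as ATP-driven proteases in the inner membrane, and HTRA2 is a serine protease of the intermembrane space. Raised transcripts of such genes are the classical readout of the mitochondrial unfolded protein response.

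HSPD1 and HSPE1 are neighbours read in opposite directions, and the stretch between their start sites is shown because the text below sets their values side by side. In the RefSeq promoter table (GRCh38.p14) the farthest upstream HSPD1 start site, at base 197500274 of chromosome 2, lay 105 bases from that of HSPE1, at base 197500379. The 104 bases between them, at chr2:197500275-197500378 on the HSPE1 strand, held no match to the 4 motifs searched and carry no capitals. A second HSPD1 start site, at base 197499840, had 3 overlapping heat shock matches near the far end of its window, shown in capitals on the HSPD1 strand at chr2:197500061-197500090.
HSPD1 and HSPE1, between start sites: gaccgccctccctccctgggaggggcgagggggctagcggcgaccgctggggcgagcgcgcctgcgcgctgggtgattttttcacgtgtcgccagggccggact
HSPD1, before the second start site: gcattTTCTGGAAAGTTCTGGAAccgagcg

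The motifs were searched on both strands in windows from 250 bases before to 50 bases after each start site. They were the composite site for ATF4 with a C/EBP partner (TGATGCAA), pairs of heat shock units facing outward (GAANNTTC) or inward (TTCNNGAA), and the CCAAT box (CCAAT). The outward and inward heat shock forms share units, so their matches overlap. Of the 10 genes, 8 had an entry, with 11 windows in all, and CLPP and YME1L1 had none. The ATF4 composite site was in none of the 11 windows and in 0.866% of all 35116 windows. The outward heat shock pair was in 1 of the 11 windows (HSPD1) and in 6.77% of all windows. The inward pair was in 2 of the 11 (HSPD1 and HSPA9) and in 7.74% of all. The CCAAT box was in 2 of the 11 (DNAJA3 and CLPX) and in 34.6% of all. These counts describe letters in windows and not bound sites.

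The deposited values were expected counts per gene from RSEM, with totals of 15941255 to 33866644 per library, and 15374 genes passed the filter on low counts, the 10 genes among them. Levels are given as CPM, counts scaled to a common library total after TMM normalization. High-dose replicate 2 had the lowest total and stood apart from its group. The SD over genes of its log2 difference from the other 2 high-dose libraries was 0.497, against 0.0989 to 0.290 for the other 11 libraries. That difference also ran with transcript length: the median log2 ratio of this library to the other high-dose libraries was 0.57 for the 360 genes whose longest transcript is up to 1000 bases and −0.21 for the 5136 genes above 4000 bases. The counts of genes that rose or fell from vehicle to the high dose are therefore also given without this library. The share of counts from the mitochondrial genome was 7.41% to 11.05% in the vehicle, low and medium libraries. At the high dose it was 14.0% to 16.6%. The rise lay in its rRNA genes. MT-RNR2 held 1.01% to 1.08% of counts in vehicle and 8.54% to 9.63% at the high dose. MT-RNR1 held 0.127% to 0.138% in vehicle and 2.73% to 2.89% at the high dose. The share of the other genes of that genome was lower at the high dose than in the other groups. Scaling without the genes of that genome changed no call on the 10 genes. The epithelial markers summed to 10534 to 12835 CPM per library, mostly from KRT8 (5637 to 7321) and KRT18 (3079 to 4628). Among them CDX2 was at 4.61 to 6.75 CPM and CDX1 at 0.923 to 1.54 CPM. The 6 markers of other cell types summed to 2.41 to 4.39 CPM. PECAM1 was at 1.36 to 2.57 CPM, COL1A1 at 0.354 to 1.61 and GFAP at 0.0708 to 0.385. PTPRC, COL3A1 and VIM were at 0 to 0.123 CPM. In bulk RNA, fewer cells and less RNA per cell cannot be told apart.

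Divided by the kilobases of their merged exons, levels in the vehicle group ran over a wide range. HSPD1 was highest, at 147 ± 4.00 CPM per kb (SD, n = 3), followed by HSPE1 at 126 ± 6.38, HSPA9 at 37.5 ± 0.15, YME1L1 at 30.2 ± 1.38 and AFG3L2 at 18.2 ± 0.70. The chamber and its lid thus led the order, and the matrix proteases stood near its end. CLPX was at 11.7 ± 0.36 CPM per kb, LONP1 at 10.7 ± 0.41, DNAJA3 at 10.4 ± 0.49, CLPP at 9.12 ± 0.95 and HTRA2 at 6.63 ± 0.30. Of the neighbours in that order, LONP1 and DNAJA3 overlapped between libraries, as did DNAJA3 and CLPP, and the other 7 pairs did not. With the length of the longest transcript instead, only 4 of the 10 genes kept their place, and HSPE1, at 328 ± 16.6 CPM per kb, stood above HSPD1, at 227 ± 6.20, so the order depends on the length used. The order in the high-dose group, by merged exons, was that of the vehicle group.

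At the high dose of ACD, HSPA9 was the 1 gene of the 10 that rose by the test. It was 19.8% higher at 500 µg/mL than in vehicle. DNAJA3, its partner, was 18.4% higher, and just missed the threshold. HSPD1 and HSPE1 were high in 1 of the 3 high-dose libraries, and YME1L1, AFG3L2 and HTRA2 differed from vehicle by −1.31%, 1.87% and 2.34%.

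By edgeR's quasi-likelihood test, with Benjamini–Hochberg adjustment over all 15374 genes, 1 of the 10 genes rose at the high dose (adjusted p under 0.05) and 0 fell, where 2.82% of all genes tested rose and 2.95% fell. A count of 1 in 10 is too small to set apart from that background. None of the 10 changed by more than 1.5-fold, whereas 2.93% of all genes passed both that fold and the adjusted p. An unadjusted p under 0.05 was seen for 4, all higher, beside 20.1% of all genes in either direction. The fitted log2 fold change was above 0 for 9 of the 10, beside 7837 of all 15374 genes. The median was 0.18 beside 0.01 for all genes. Without high-dose replicate 2 it was above 0 for 3 of the 4 chaperones (median 0.15) and 4 of the 6 proteases (median 0.03). All 15674 genes tested in that fit had a median of −0.01, with 7538 above 0. In 4 of the 10, all 3 high-dose libraries lay above all 3 vehicle libraries, which held for 10.5% of all genes, and in 0 of the 10 they lay below, which held for 11.5%. Without high-dose replicate 2, 3 of the 10 rose (HSPA9, DNAJA3 and LONP1) while the calls among all 15674 genes then tested went up to 1539 risen and 1395 fallen.

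**Figure D1:**
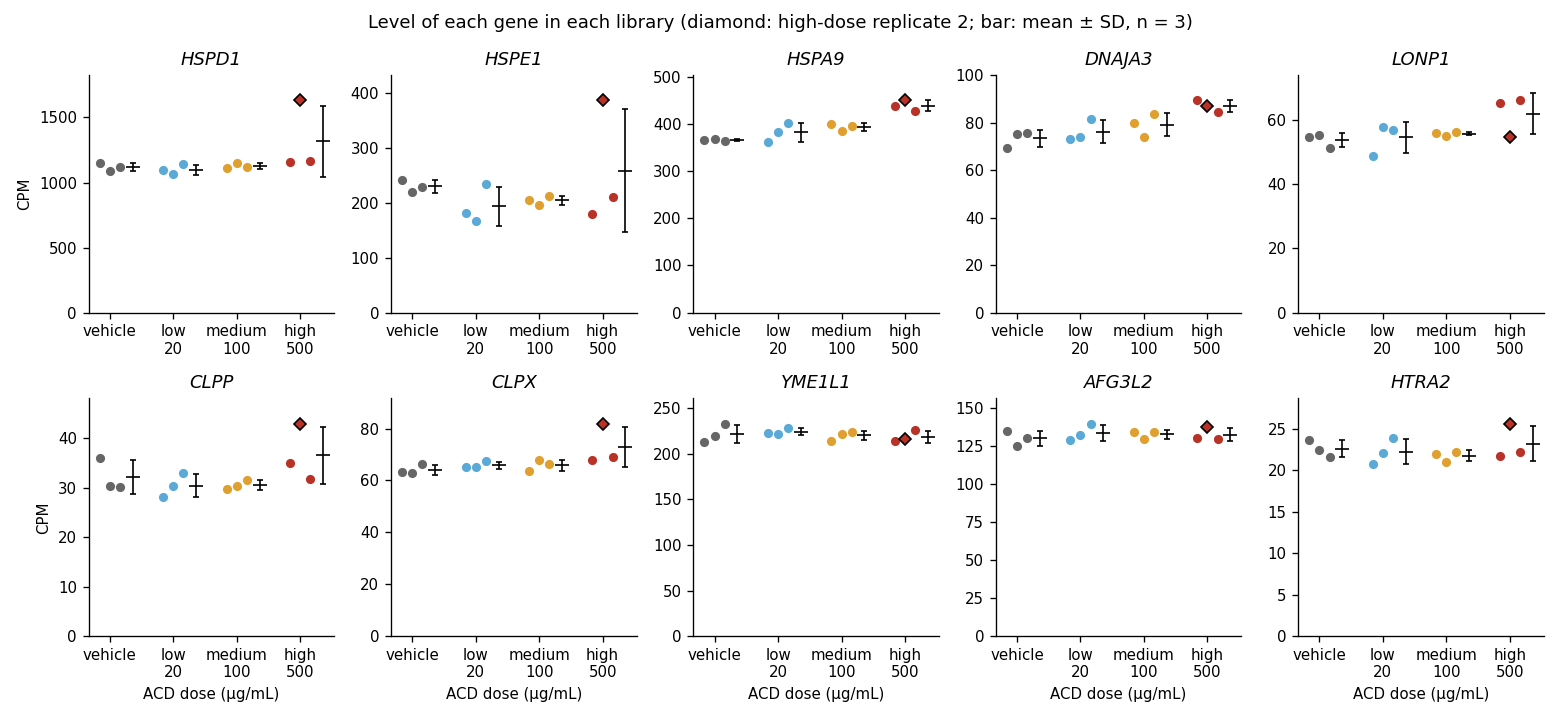
Level of each of the 10 genes in CPM (y axis, from 0) in each library, by group with the dose in µg/mL (x axis). Points are libraries, the diamond is high-dose replicate 2, and the bars give the mean ± SD of 3 libraries. HSPA9 and DNAJA3 sit above vehicle in all 3 high-dose libraries, while HSPD1, HSPE1, CLPP and CLPX are high mainly in the diamond.

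HSPA9 (ENSG00000113013; GRCh38, GENCODE 44, chromosome 5, 138553756 to 138575675, minus strand) was at 366, 368 and 365 CPM in the vehicle libraries, 363, 383 and 402 with 20 µg/mL, 401, 385 and 397 with 100 µg/mL, and 439, 451 and 427 with 500 µg/mL. Every high-dose library was above every other library, and the medium libraries were all above the vehicle libraries. The vehicle libraries had a CV of 0.404%. The log2 fold change at the high dose was 0.26 ± 0.07 (SE; 95% interval 0.12 to 0.40, adjusted p = 0.0385). It was 0.11 with 100 µg/mL (−0.04 to 0.25, adjusted p = 0.595) and 0.06 with 20 µg/mL (−0.08 to 0.21, adjusted p = 0.852). Fitted over the dose rank of vehicle, low, medium and high, it rose by 0.08 ± 0.02 on the log2 scale per step (adjusted p = 0.0305). The call at the high dose by edgeR is close to the threshold. Over 20 alternative settings the log2 fold change stayed between 0.24 and 0.28, and 8 of the 20 kept the adjusted p under 0.05. The adjusted p ran from 9.05e-06 (DESeq2 on all libraries) to 0.312 (edgeR on the 2 compared groups alone). With 1 library left out, the adjusted p was above 0.05 without vehicle replicates 1, 2 or 3, low-dose replicate 2, medium-dose replicates 1, 2 or 3, or high-dose replicates 1 or 3 (0.0573 to 0.119). Without high-dose replicate 2 the log2 fold change was 0.24 (adjusted p = 0.00683). The slope over the dose rank lost its call without vehicle replicates 2 or 3, or high-dose replicates 1 or 3 (adjusted p 0.0601 to 0.0885).

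DNAJA3 (ENSG00000103423; chromosome 16, 4425805 to 4456775, plus strand) was at 69.5, 75.3 and 75.6 CPM in vehicle, 73.0, 73.9 and 81.8 with 20 µg/mL, 79.98, 73.9 and 83.6 with 100 µg/mL, and 89.5, 87.1 and 84.4 with 500 µg/mL. As for HSPA9, the 3 high-dose libraries were above all others, and those of the low and medium doses overlapped the vehicle. Its log2 fold change at the high dose was 0.24 ± 0.07 (0.09 to 0.40, adjusted p = 0.0758), and its slope over the dose rank was 0.08 ± 0.02 per step (adjusted p = 0.0521). It passed the threshold without high-dose replicate 2, with a log2 fold change of 0.24 (adjusted p = 0.0204), and under DESeq2 (0.25, adjusted p = 0.0189).

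The pair of HSPA9 and DNAJA3 kept nearly the same ratio throughout. The log2 ratio of HSPA9 to DNAJA3 was between 2.25 and 2.40 in the 12 libraries, with a mean of 2.32 ± 0.07 (SD, n = 3) in vehicle and 2.33 ± 0.04 at the high dose. No trend of the ratio with dose is visible in these values. Among the 10625 other genes with a mean of at least 5 CPM, ranked by the root mean square difference of their centred log2 CPM from that of HSPA9 over the 12 libraries, DNAJA3 was 11th (0.0461). The nearest were SLC39A6 (0.0384), ADAM15 (0.0398), PPP4R1 (0.0411), SEPHS1 (0.0412) and GAPDH (0.0419). Of the remaining members the nearest was CLPX, in place 232, and the farthest was HSPE1, in place 9267.

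HSPD1 (ENSG00000144381; chromosome 2, 197486584 to 197516737, minus strand) was at 1148, 1087 and 1120.3 CPM in vehicle, 1094, 1064 and 1140.0 with 20 µg/mL, 1109, 1152 and 1122 with 100 µg/mL, and 1155, 1632 and 1167 with 500 µg/mL. The high-dose libraries were all above the vehicle libraries, replicate 2 by far and replicates 1 and 3 by a small margin. The log2 fold change at the high dose was 0.24 ± 0.12 (−0.02 to 0.49, adjusted p = 0.297). Without replicate 2 it was 0.06 (adjusted p = 0.540). It was 0.01 with 100 µg/mL (−0.25 to 0.27) and −0.02 with 20 µg/mL (−0.28 to 0.23).

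HSPE1 (ENSG00000115541; chromosome 2, 197500140 to 197503449, plus strand) was at 242, 218 and 228 CPM in vehicle, 181, 166 and 234 with 20 µg/mL, 205, 195 and 212 with 100 µg/mL, and 179, 386 and 210 with 500 µg/mL. Replicate 2 of the high dose held the highest value of all 12 libraries, and the other 2 high-dose libraries lay below the vehicle. Its log2 fold change was 0.17 ± 0.23 (−0.32 to 0.66, adjusted p = 0.747), and without that library the sign turned, to −0.24 (adjusted p = 0.209). All 3 medium libraries were below all 3 vehicle libraries, with a log2 fold change of −0.17 (−0.66 to 0.32, adjusted p = 0.823), which did not pass the test. At the low dose it was −0.25 (−0.74 to 0.24, adjusted p = 0.829).

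The chamber and its lid did not keep a fixed ratio. The log2 ratio of HSPD1 to HSPE1 was 2.29 ± 0.03 in vehicle, 2.52 ± 0.21 with 20 µg/mL, 2.47 ± 0.08 with 100 µg/mL, and 2.42 ± 0.31 with 500 µg/mL (SD, n = 3). Its lowest value, 2.08, was in high-dose replicate 2 and its highest, 2.69, in high-dose replicate 1, so both extremes of the 12 libraries fell in 1 group. High-dose replicate 2 was 1.99-fold above the mean of replicates 1 and 3 for HSPE1 and 1.41-fold for HSPD1. The longest transcript is 700 bases for HSPE1 and 4930 bases for HSPD1. On the log2 scale the ratio was 0.99 for HSPE1, beside a median of 0.57 (upper quartile 0.81) for genes up to 1000 bases. For HSPD1 it was 0.49, beside a median of −0.21 (upper quartile 0.08) above 4000 bases. The part of transcript length in these values was not tested for single genes. The gene models share sequence on opposite strands, with overlapping exons. The library kit was directional, but the strand setting of the counting is not given in the sources used here. Whether reads in the overlap were told apart is therefore not known. A readthrough gene, HSPE1-MOB4, held 3.33 to 25.6 expected counts per library, and the 18 HSPD1 pseudogenes of the table held at most 0.342% of the counts of the gene and its copies together.

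**Figure D2:**
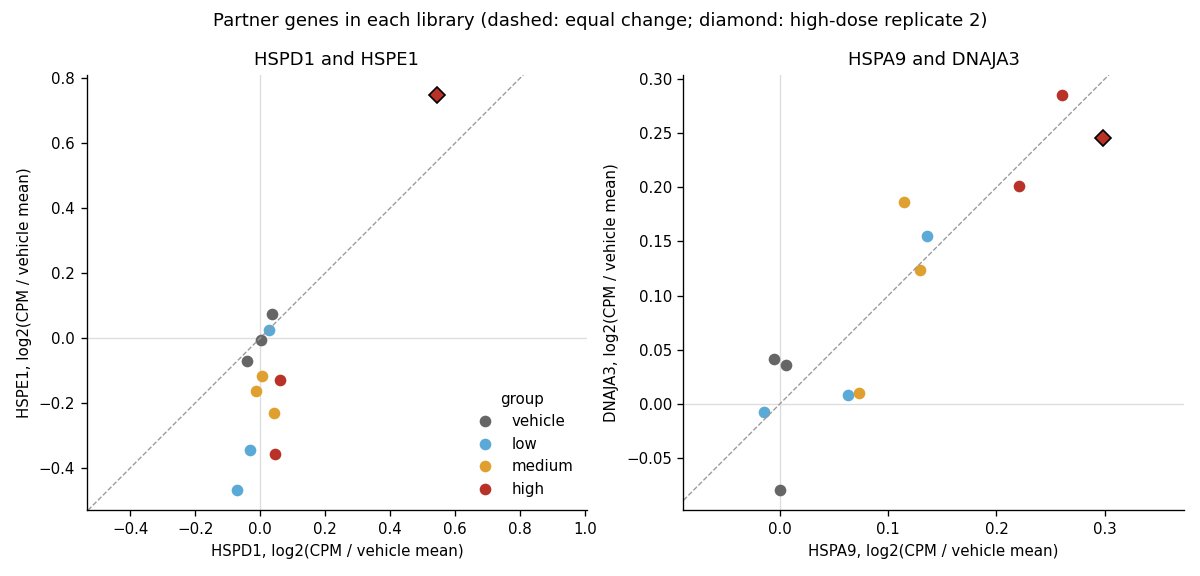
Log2 ratio of each library to the vehicle mean for HSPD1 (x axis) against HSPE1 (y axis) on the left and for HSPA9 against DNAJA3 on the right, coloured by group. The dashed line marks equal change. On the left, high-dose replicate 2 (diamond) lies far from the other 11 libraries. On the right, the high-dose libraries lie together beyond the rest, near the line.

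LONP1 (ENSG00000196365; chromosome 19, 5691834 to 5720572, minus strand) was at 54.6, 55.2 and 51.3 CPM in vehicle, 48.9, 57.8 and 56.9 with 20 µg/mL, 55.9, 55.1 and 56.3 with 100 µg/mL, and 65.2, 54.6 and 66.1 with 500 µg/mL. Replicates 1 and 3 of the high dose were above all other libraries, and replicate 2 lay among the vehicle libraries. The log2 fold change was 0.21 ± 0.09 (0.02 to 0.40, adjusted p = 0.204). Without replicate 2 it was 0.29 (adjusted p = 0.00742), past the threshold. LONP1 overlaps RPL36 by 42 bases on the opposite strand, and RPL36 had more counts.

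CLPP (ENSG00000125656; chromosome 19, 6361531 to 6370242, plus strand) was at 36.05, 30.3 and 30.2 CPM in vehicle, 28.2, 30.3 and 32.9 with 20 µg/mL, 29.7, 30.4 and 31.6 with 100 µg/mL, and 35.0, 42.9 and 31.7 with 500 µg/mL. The high-dose and vehicle libraries overlapped, with replicate 2 of the high dose above all others. Its log2 fold change was 0.18 ± 0.11 (−0.07 to 0.42, adjusted p = 0.418), and without replicate 2 it was 0.06 (adjusted p = 0.681). CLPX (ENSG00000166855; chromosome 15, 65148219 to 65185342, minus strand) was at 63.2, 62.8 and 66.4 CPM in vehicle, 65.0, 65.0 and 67.4 with 20 µg/mL, 63.7, 67.9 and 66.3 with 100 µg/mL, and 67.8, 81.8 and 69.0 with 500 µg/mL. The high-dose libraries were above the vehicle libraries, and replicates 1 and 3 were close to the highest low-dose and medium-dose libraries. The log2 fold change was 0.18 ± 0.08 (0.01 to 0.35, adjusted p = 0.207), and without replicate 2 it was 0.09 (adjusted p = 0.254). The log2 ratio of CLPX to CLPP was 1.00 ± 0.17 in vehicle and 1.00 ± 0.10 at the high dose.

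The 2 inner-membrane proteases and HTRA2 lay closest to no change. YME1L1 (ENSG00000136758; chromosome 10, 27110111 to 27155266, minus strand) was at 213, 219 and 232 CPM in vehicle, 223, 221 and 228 with 20 µg/mL, 214, 222 and 224 with 100 µg/mL, and 213, 216 and 226 with 500 µg/mL. The groups overlapped at every dose, and the log2 fold change at the high dose was −0.02 ± 0.06 (−0.15 to 0.12, adjusted p = 0.915). AFG3L2 (ENSG00000141385; chromosome 18, 12328944 to 12377227, minus strand) was at 135, 125 and 130.2 CPM in vehicle, 129, 132 and 139.6 with 20 µg/mL, 134, 129.5 and 134 with 100 µg/mL, and 130.3, 137 and 129.97 with 500 µg/mL. Its log2 fold change was 0.03 ± 0.06 (−0.11 to 0.16, adjusted p = 0.868). HTRA2 (ENSG00000115317; chromosome 2, 74529596 to 74533350, plus strand) was at 23.7, 22.4 and 21.6 CPM in vehicle, 20.8, 22.1 and 23.8 with 20 µg/mL, 21.9, 21.0 and 22.2 with 100 µg/mL, and 21.7, 25.6 and 22.2 with 500 µg/mL. Replicate 2 of the high dose was again the highest, and the log2 fold change of 0.03 ± 0.08 (−0.15 to 0.22, adjusted p = 0.881) became −0.04 without it (adjusted p = 0.784). The 95% intervals of these 3 genes at the high dose lie within 0.22 of 0 on the log2 scale, which is narrow beside that of HSPE1. HTRA2 overlaps AUP1 and LOXL3, YME1L1 overlaps MASTL and AFG3L2 overlaps TUBB6, each on the opposite strand.

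**Figure D3:**
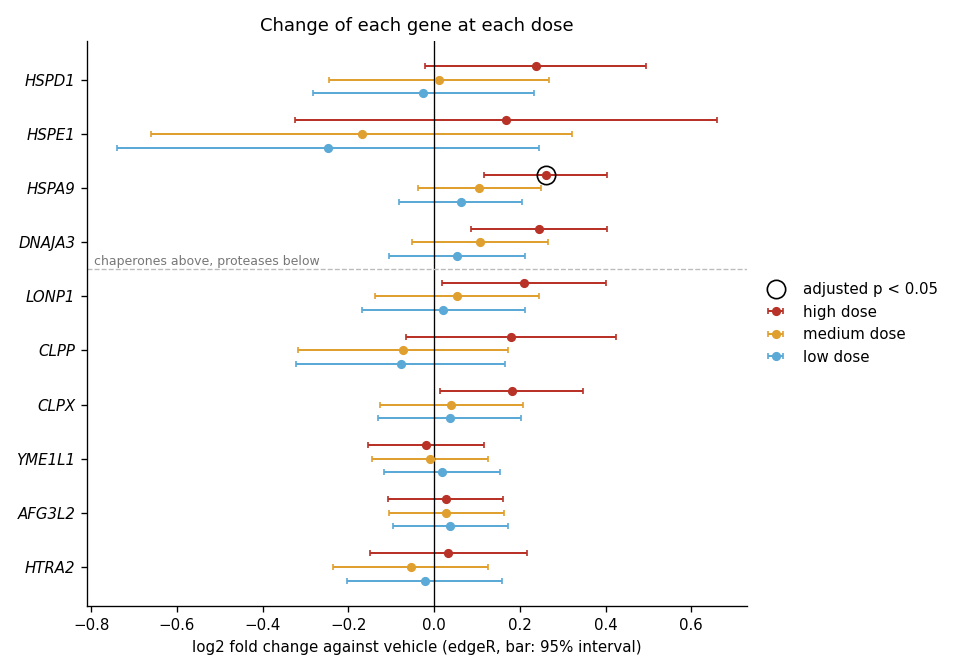
Log2 fold change against vehicle (x axis) of each gene (y axis) at the high, medium and low dose, with the 95% interval from edgeR as a bar. The circled point, HSPA9 at the high dose (0.26), is the one with an adjusted p under 0.05, and the intervals of HSPE1 are the widest.

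At the medium and low doses none of the 10 genes was called. By edgeR, 0 of 10 had an adjusted p under 0.05 at the medium dose, where 1.01% of all genes did, and 0 of 10 at the low dose, where 0.124% did. DESeq2 also called 0 at both doses, and its share over all genes is not given here. By edgeR, 0 of the 10 had an unadjusted p under 0.05 at the medium dose, beside 11.7% of all genes in either direction. At the low dose it was again 0 of the 10, beside 7.95%. The lowest adjusted p was 0.595 (HSPA9, medium dose) and 0.829 (HSPE1, low dose). The 3 dose comparisons share the vehicle libraries, so their values are not independent. The high-dose and low-dose groups, compared without the vehicle, gave 0 calls by edgeR, beside 2.98% of all genes. Of the 10, 4 had an unadjusted p under 0.05, beside 15.4% of all genes in either direction. The lowest adjusted p for high against low was 0.156 (HSPA9, log2 fold change 0.20). DESeq2 called 1 gene there (HSPA9, adjusted p = 0.00249), and its share over all genes is not given here. Over the dose rank, HSPA9 was the 1 gene of 10 that rose, where 2.75% of all genes rose and 2.98% fell, and 0 of the 10 fell. An unadjusted p under 0.05 was seen for 4, all with a positive slope, beside 20.1% of all genes in either direction. Without high-dose replicate 2 the number that rose was 3, and the share over all genes in that fit is not given here.

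Among the other genes of the same machinery, 1 rose and 1 fell at the high dose. Over all 15374 genes, 433 rose and 454 fell. Without high-dose replicate 2 these became 1539 and 1395 of 15674, so calls in that fit were more frequent over all genes. Of 11 other mitochondrial chaperones and import motor subunits, 1 rose and 0 fell, with a median log2 fold change of 0.15 and a range of −0.45 to 0.49. Without high-dose replicate 2, 3 rose and 1 fell, with a median of 0.06 and a lowest value of −0.61. The gene that rose with all libraries was GRPEL2, a nucleotide exchange factor of HSPA9, which was at 29.4 to 35.7 CPM in vehicle and 42.6 to 51.1 CPM at the high dose with no overlap (log2 fold change 0.49 ± 0.09, adjusted p = 0.00604). Of 13 other mitochondrial proteases and peptidases, 0 rose and 1 fell, with a median of 0.06. It was SPG7, the subunit that pairs with AFG3L2 in the inner membrane, at 57.5 to 61.6 CPM in vehicle and 41.6 to 49.7 CPM at the high dose (−0.37 ± 0.08, adjusted p = 0.0145). The difference between SPG7 and AFG3L2 was not tested. Of 5 scaffold and adaptor proteins of the inner membrane (median 0.11) and 21 import channel genes (median 0.09), 0 rose and 0 fell by edgeR. Without high-dose replicate 2, 1 of the other proteases rose and 1 fell (median −0.13), 1 import channel gene fell and 0 rose (median −0.13, lowest −0.58), and 0 scaffolds rose or fell (median −0.05).

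Lists of other stress genes give the setting of these values. They stand beside the same background of 433 risen and 454 fallen among 15374 genes. Without high-dose replicate 2 that background was 1539 risen and 1395 fallen among 15674. Of 13 stress transcription factors and their targets, 8 rose and 0 fell at the high dose, with a median log2 fold change of 0.59, and 8 rose without high-dose replicate 2 (median 0.50). CHAC1, which degrades glutathione, went from 2.27 to 3.14 CPM in vehicle to 17.5 to 21.9 CPM (log2 fold change 2.97 ± 0.13, adjusted p = 1.03e-07). ASNS, the asparagine synthetase, went from 55.5 to 56.5 CPM to 204 to 299.7 CPM (2.08 ± 0.13, adjusted p = 1.94e-06), and TRIB3, a pseudokinase, from 41.3 to 44.4 CPM to 87.0 to 93.3 CPM (1.07 ± 0.07, adjusted p = 4.21e-06). The next 3 genes, all transcription factors, were named after their values were seen: ATF4 (0.59, adjusted p = 0.00146) and DDIT3 (0.75, adjusted p = 0.00372) rose, while ATF5 had a log2 fold change of −0.38 (adjusted p = 0.187). Of 11 cytosolic heat shock genes, 0 rose and 1 fell (HSPB1, −0.44 ± 0.11, adjusted p = 0.0291), with a median of 0.16, and without high-dose replicate 2 the numbers were 4 and 1 (median 0.09). Of 14 chaperones and stress genes of the endoplasmic reticulum, 2 rose (HERPUD1, 0.43, adjusted p = 0.00234, and XBP1, 0.39, adjusted p = 0.0329). In the same list 1 fell (CRELD2, −0.35, adjusted p = 0.0474), and the median was 0.13. The chaperones HSPA5 (0.23, adjusted p = 0.140) and HSP90B1 (0.07, adjusted p = 0.745) were not called. Without high-dose replicate 2, 4 of these rose and 2 fell, the median was 0.01, and XBP1 was at 0.25 (adjusted p = 0.00280). At the medium and low doses 0 genes of these lists were called by edgeR.

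**Figure D4:**
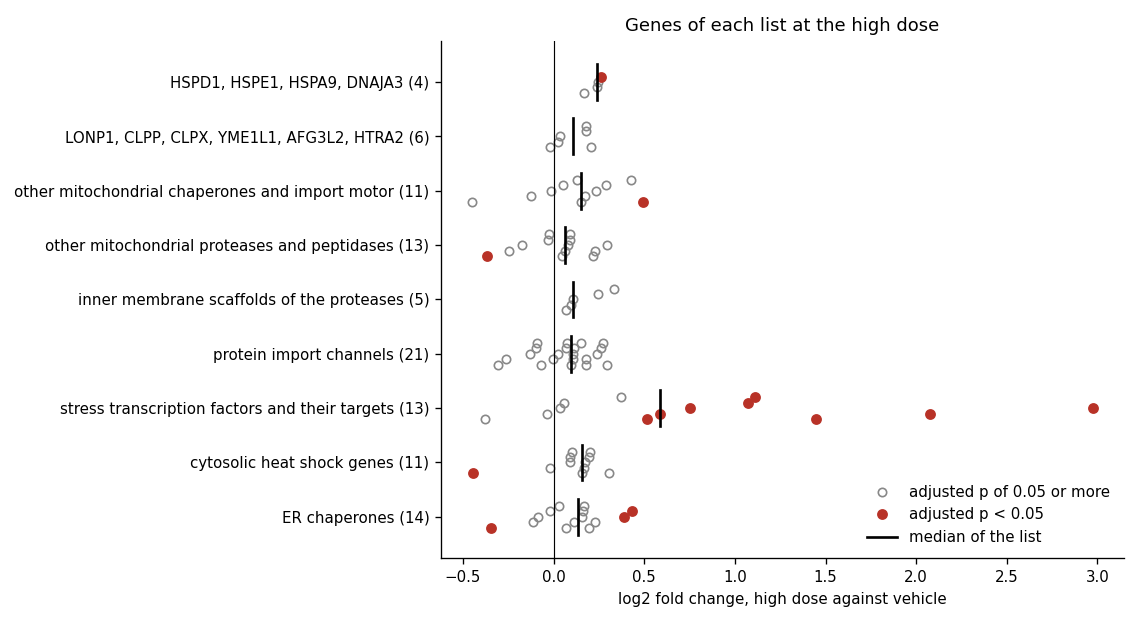
Log2 fold change at the high dose against vehicle (x axis) of each gene in the 10-gene set, split into chaperones and proteases, and in the other lists (y axis, number of genes in brackets). Filled points have an adjusted p under 0.05 and the vertical line is the median of the list. The stress factors and their targets reach 2.97, whereas the 10 genes lie between −0.02 and 0.26.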

How the data were processed

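Total RNA from HT29 cells was made into libraries with a directional kit and read as 100 bp paired ends. Per the study's methods, read quality was assessed with FastQC, adapters were cut with Trim Galore, STAR did the alignment, and RSEM, on the GRCh38.84 annotation, gave the expected counts of each gene that the authors deposited. The submitters' processing notes give versions 0.11.9 for FastQC, 0.6.5 for Trim Galore, 2.7.3a for STAR and 1.3.3 for RSEM. The study's methods name later versions of Trim Galore and STAR, and which were used is not settled by the sources used here. No normalization had been applied to the deposited counts, and 24.2% of the values are not whole. They were rounded before testing. The strand setting is not given in the sources used here.

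Here, 93.2% of the gene IDs were matched to a symbol. Genes were filtered with filterByExpr and scaled by TMM. The main test was the quasi-likelihood F test of edgeR 4.0.16 (R 4.3.3), with robust estimation, the 4 groups as terms and all 12 libraries in 1 fit (common dispersion 0.0126). A dose trend used the dose rank as a linear term. The Benjamini–Hochberg adjustment was made over all 15374 genes tested, and a gene with an adjusted p under 0.05 was called. Standard errors came from the F statistic. Log2 CPM used a prior count of 2. DESeq2 1.42.0 and the other alternatives appear in the closing section. The edgeR code was tested on simulated data, and the DESeq2 code was not. Tables were made in Python 3.11.15 with numpy 2.4.6 and pandas 2.3.3, and figures with matplotlib 3.10.9. Gene models are from GENCODE 44 and promoter windows from RefSeq.

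All 10 genes are named. From each other list, up to 3 genes with the smallest p among those with an adjusted p under 0.05 at the high dose were named, as were the 5 genes most like HSPA9, the gene with the smallest p. The members and lists were chosen with earlier results of these data known, so no p over a list is given. The labels do not say whether replicates came from separate cultures, so p-values measure the spread between these libraries, which may be technical. Libraries of other cells or treatments were not analysed here.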

Additional observations from a re-analysis of the deposited data

How the results depend on the processing

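The number of the 10 genes that rose at the high dose against vehicle (1) became 2 under DESeq2 on all libraries and 0 with edgeR on the 2 compared groups alone, with no filter on low counts, with a fold change over 1.5 also required, and with the replicate number as a block (replicate block, HSPA9 adjusted p = 0.0933). Leaving out 1 library gave 0 to 3: it was 0 without vehicle replicates 1, 2 or 3, low replicate 2, medium replicates 1, 2 or 3, or high replicates 1 or 3, and 3 without high replicate 2. The number that rose with the dose rank (1) became 2 under DESeq2 and with DESeq2's size factors, 0 with no filter and 0 with the replicate block (HSPA9 adjusted p = 0.0659), and was 0 to 3 with 1 library left out (0 without vehicle replicates 2 or 3 or high replicates 1 or 3, 2 without low replicate 3 or medium replicate 2, and 3 without high replicate 2). High against low dose gave 0 calls, 1 under DESeq2 and 0 to 1 with 1 library left out (1 without high replicate 2). The next numbers cover the counts of risen and fallen genes in all comparisons, and the number of genes that kept their place by longest transcript. Of these alternative counts, 178 were within 1.5 times the main count and 29 were not. But 164 of the 178 set a count of 0 beside a main count of 0. Where the main count was above 0, 14 were within 1.5 times and 27 were not, with the order by longest transcript among the 27. A filter of at least 10 counts in every library, scaling without the mitochondrial genome and summing with pseudogenes changed no call on the 10 genes.

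Samples of equal replicate number were not more alike than others. Over the 18 pairs of equal number, the correlation of deviations from the group means was −0.495 to 0.372. Its median was −0.0778, beside 0.0598 for unequal numbers. Deviations from means of 3 libraries cannot exclude a shared culture or batch, and the labels do not say what the numbers mark. The block was kept out of the main fit and is given here only, and it called none of the 10 genes in any comparison.

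Log2 values that changed sign were all uncalled. With no filter, YME1L1 at the medium dose was 0.0066. The others crossed 0 with 1 library left out. At the high dose HSPE1 ranged from −0.24 to 0.37 (lowest without high replicate 2), HTRA2 from −0.035 to 0.077 and YME1L1 from −0.047 to 0.027. At the medium dose HSPD1 ranged from −0.0026 to 0.031, CLPP from −0.11 to 0.015 and YME1L1 from −0.037 to 0.034. At the low dose DNAJA3 ranged from −0.00068 to 0.081, LONP1 from −0.023 to 0.093, CLPP from −0.14 to 0.0085, YME1L1 from −0.010 to 0.053 and HTRA2 from −0.074 to 0.022. For high against low dose AFG3L2 ranged from −0.037 to 0.031 and HTRA2 from −0.013 to 0.12. In the dose trend, per step, HSPE1 ranged from −0.067 to 0.097, YME1L1 from −0.017 to 0.0036 and HTRA2 from −0.015 to 0.018.

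By the longest transcript in place of merged exons, 4 of the 10 genes kept their place in the order of levels. GRPEL2 was called in 19 of 20 alternatives and SPG7 in 17. HSPB1, XBP1 and CRELD2 were called in 11, 9 and 6.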
